A study of Mus musculus with 8 samples.

Results

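The lysosome, the acidic compartment in which cells break down proteins, sugars, lipids and other cargo, was followed at the RNA level through 37 of its genes in the mouse uterus over the estrous cycle. The genes were listed by name, from knowledge of the lysosome: 7 cysteine proteases, 3 other proteases, 9 hydrolases of glycans, 4 hydrolases of lipids, 4 activators and lipid carriers, 7 membrane proteins, 2 phosphatases and 1 transcription factor. Earlier results of these data were known when the list was chosen, so the counts below are not those of an independent list. All 37 were found among the 52308 genes of the deposited table, and all 37 were among the 18114 genes with enough counts to be tested. The samples were whole uteri of female ICR mice, an outbred stock, aged 6 to 8 weeks, with no genotype or treatment named. Stage was read from the cells of a vaginal smear, and each of proestrus, estrus, metestrus and diestrus has 2 libraries, numbered 1 and 2 and named below in that order. The labels do not say whether the libraries of a stage came from separate animals, so every p-value here measures the spread between samples alone, and that spread may be technical. Smears place an animal in a stage, not at an hour. The stages can be compared only between samples, since a whole uterus cannot be followed through the stages.

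Lysosomal hydrolases are made as precursors, tagged with mannose 6-phosphate and carried from the Golgi to the lysosome by receptors, where a proton pump keeps the pH low enough for them to work. The transcription factor TFEB and its relatives bind a short palindrome, the CLEAR element, in the promoters of many lysosomal genes. In the uterus of cycling rodents, estrogen peaks in proestrus, the lining regresses after estrus, and macrophages, cells rich in lysosomes, are found in the tissue.

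The core of the CLEAR element, TCACGTG on either strand (CACGTGA when read on the other strand), was searched from 250 bases before to 50 bases after the RefSeq starts (build GRCm38.p6) of the 33 genes that have such a window, which leaves out Asah1, Atp6v0d2, Ctsb and Ctsh. It was present in 9 of the 33 (27.3%), namely Ctsa, Ctsd, Gaa, Gla, Glb1, Lamp1, Lgmn, Mcoln1 and Naglu, and in 1160 of 27025 genes with a window (4.29%). A related word, TCATGTG or CACATGA, was present in 7 of the 33 (21.2%) and in 1165 of the 27025 (4.31%). A match to the first word is never a match to the second, and 2 genes of the list, Ctsa and Gla, hold both. The promoters below are those of the 5 genes with a match in the 120 bases before the more upstream of the RefSeq and GENCODE starts, and they are shown because these genes differ in their course over the cycle. Each line is 120 bases, 5′ to 3′ on the strand of the gene, and capitals mark TCACGTG on either strand.
Gaa, chr11:119267767-119267886, plus strand: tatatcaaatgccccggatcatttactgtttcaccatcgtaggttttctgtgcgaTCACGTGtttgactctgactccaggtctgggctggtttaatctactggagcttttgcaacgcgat
Gla, chrX:134601126-134601245, minus strand: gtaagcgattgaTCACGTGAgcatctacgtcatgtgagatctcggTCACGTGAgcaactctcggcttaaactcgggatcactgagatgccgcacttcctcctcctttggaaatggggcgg
Glb1, chr9:114400956-114401075, plus strand: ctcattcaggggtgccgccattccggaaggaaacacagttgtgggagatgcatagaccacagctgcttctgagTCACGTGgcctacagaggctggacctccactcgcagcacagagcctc
Lamp1, chr8:13159041-13159160, plus strand: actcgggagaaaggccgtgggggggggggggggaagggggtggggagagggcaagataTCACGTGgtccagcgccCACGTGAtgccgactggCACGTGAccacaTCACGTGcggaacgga
Mcoln1, chr8:3500337-3500456, plus strand: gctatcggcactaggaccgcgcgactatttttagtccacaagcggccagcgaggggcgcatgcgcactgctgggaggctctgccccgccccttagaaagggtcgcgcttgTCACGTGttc
The Lamp1 window holds 4 separate runs of capitals, and the Gla window 2, each of which reads as a match on both strands. These are matches of letters, and binding was not measured.

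Total counts per library ran from 17863546 to 21896786. Levels are in CPM, each gene's count after scaling all libraries to 1 size, and a change is a log2 fold change ± SE from edgeR, fitted to all 8 libraries, with p adjusted over all 18114 genes and called under 0.05. Markers of uterine tissue were present in every library, among them Hoxa11 at 42.6 to 184 CPM and Hand2 at 17.8 to 79.8 CPM, transcription factors of the uterine stroma. The libraries of diestrus stood further apart than those of other stages, with 2713 of the tested genes over 2-fold apart against 837 to 1448. Whole uterus is a mixture, and for every level below, fewer cells of a type and less RNA per cell cannot be told apart.

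Across the 4 stages 30 of the 37 lysosomal genes changed, against 39.1% of all genes tested. The course was a peak in estrus and a trough in metestrus. The stage mean was highest in estrus for 29 genes, in proestrus for 4 and in diestrus for 4. It was lowest in metestrus for 30. The shares of all genes with their highest or lowest mean in these stages were not counted. Both estrus libraries lay above the other 6 for 24 genes (16.6% of all tested genes), and both metestrus libraries lay below the other 6 for 19 genes (9.31% of all). Summed over the 37 genes, the level was 12087 and 8822 CPM for proestrus, 17367 and 15919.8 for estrus, 6642 and 6443 for metestrus and 8978 and 8254 for diestrus. The sum in estrus was above that of every other library, and the sum in metestrus was below that of every other library. Fewer genes changed across the stages when 1 library was left out: 24 without either proestrus library, 18 and 19 without estrus library 1 or 2, and 20 and 19 without metestrus library 1 or 2. Without diestrus library 1 or 2, 32 changed.

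**Figure D1:**
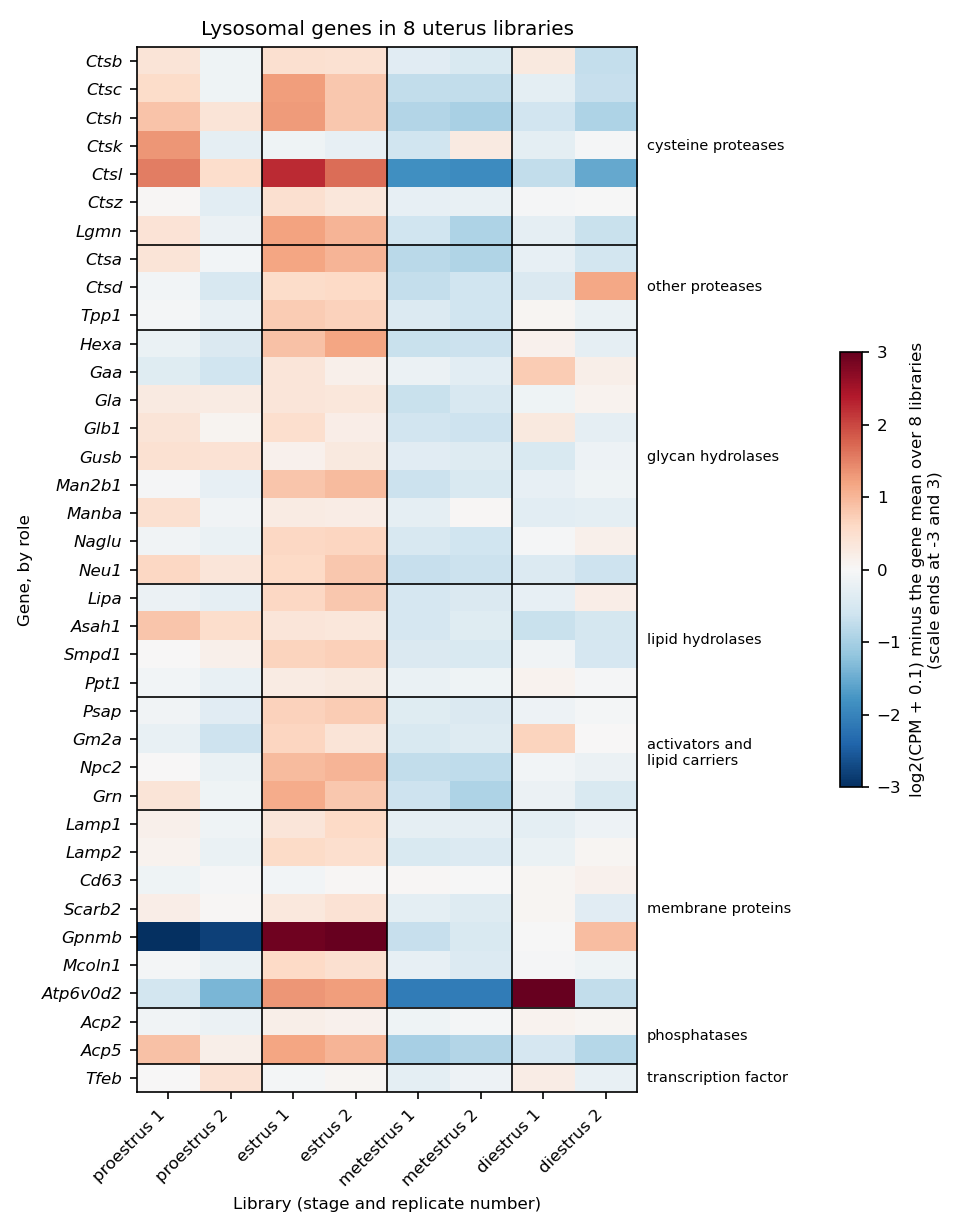
Level of each of the 37 lysosomal genes (rows, grouped by role) in each of the 8 libraries (columns), as log2(CPM + 0.1) minus the mean of the gene over the libraries, with colours ending at -3 and 3. The estrus columns are the reddest for most genes and the metestrus columns the bluest, while Atp6v0d2 is highest in diestrus library 1.

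The cysteine proteases cut proteins inside the lysosome. Of the 7, 5 changed across the stages (39.1% of all genes tested), all of them lower in metestrus than in estrus (19.5% of all). Ctsl (ENSMUSG00000021477, chr13:64359337-64370890 on GRCm38), an endopeptidase and after Ctsb the most abundant of them per kb of exon, had 2304 and 1139 CPM for proestrus, 3775 and 2558 for estrus, 223 and 214 for metestrus and 478 and 276 for diestrus. Its estrus and proestrus libraries lay wholly above the others. Of 2 annotated genes that overlap its exons, Gm47123 (1742 shared bases, opposite strand) and Gm49230 (395, same strand), neither had a count in any library. How reads in shared bases were counted is not given, so these zeros do not show that the counts of Ctsl were unaffected. It fell by 3.86 ± 0.45 on the log2 scale from estrus to metestrus (adjusted p = 0.00257), the largest fall of the list together with that of Gpnmb, and stood 3.07 ± 0.43 above diestrus in estrus (adjusted p = 0.00542). The difference of 0.88 ± 0.40 between estrus and proestrus did not pass (adjusted p = 0.178). Proestrus was 2.19 ± 0.42 above diestrus (adjusted p = 0.0140), a call that ended without proestrus library 1 (adjusted p = 0.0655) or when the other 4 libraries were dropped from the fit (0.0717). Metestrus minus proestrus was -2.98 ± 0.43 (adjusted p = 0.00882), which ended without metestrus library 1 (0.0743) or 2 (0.0859).

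Ctsh (ENSMUSG00000032359, chr9:90054152-90076089), which trims residues from the amino end of peptides, had 363 and 264 CPM for proestrus, 487 and 354 for estrus, 109 and 102 for metestrus and 135 and 106 for diestrus. Its libraries split the same way as those of Ctsl, proestrus and estrus above metestrus and diestrus with no overlap. It fell by 2.00 ± 0.23 from estrus to metestrus (adjusted p = 0.00257). The difference of 1.38 ± 0.23 between proestrus and diestrus (adjusted p = 0.00868) ended without proestrus library 1 (0.0531). Metestrus minus proestrus was -1.57 ± 0.23 (adjusted p = 0.00883), and ended without proestrus library 1 (0.054) or metestrus library 1 (0.0689) or 2 (0.0856). Of the remaining proteases of this class, Ctsc, which activates serine proteases of immune cells, averaged 267 ± 57.0 CPM for estrus and 77.2 ± 0.330 CPM for metestrus (SD, n = 2, as for all means below). Lgmn, which cuts after asparagine, averaged 215 ± 61.1 CPM for proestrus, 422 ± 40.3 CPM for estrus and 116 ± 19.3 CPM for metestrus, and both steps passed. Ctsz, a carboxypeptidase, also rose into estrus and fell after it, between 237 CPM for estrus and 152 CPM for metestrus.

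Ctsb and Ctsk did not pass the test across the stages. Ctsb, the cysteine protease with the highest level per kb (279.8 CPM per kb over all libraries, against 211 for Ctsl), had 2123 and 1491 CPM for proestrus, 2276 and 2209 for estrus, 1276 and 1182 for metestrus and 1998 and 991 for diestrus, and its adjusted p across the stages was 0.207. Both estrus libraries were the highest, but the libraries of proestrus and diestrus were far apart. Ctsb shares 774 exon bases with Fdft1 on the opposite strand, at 21.1 to 119.8 CPM. Ctsk, a collagen-degrading protease best known from osteoclasts, had 112 and 36.8 CPM for proestrus, 40.9 and 37.5 for estrus, 29.2 and 54.0 for metestrus and 36.3 and 43.8 for diestrus (adjusted p = 0.331). Only proestrus library 1 stood out. Ctsb and Ctsk were chosen for full values after those values were seen.

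Among the other proteases, Ctsa and Tpp1 rose into estrus and fell after it. Ctsa (ENSMUSG00000017760, chr2:164832873-164841032), a carboxypeptidase that also protects the sialidase Neu1 and β-galactosidase in a complex, had 363 and 264 CPM for proestrus, 630.4 and 562 for estrus, 159 and 147 for metestrus and 232 and 189 for diestrus. The estrus libraries lay above all others, and those of metestrus below. It fell by 1.96 ± 0.19 from estrus to metestrus (adjusted p = 0.00181). The rise of 0.93 ± 0.19 from proestrus to estrus (adjusted p = 0.0241) ended without proestrus library 2 (0.115), either estrus library (0.124 and 0.0891) or either metestrus library (0.0566 and 0.056). Ctsa shares 495 exon bases with Pltp on the opposite strand, a lipid transfer protein at 35.1 to 186 CPM, and the strand setting of the counting is not given in the sources used here. Tpp1 (ENSMUSG00000030894, chr7:105744811-105752235), which removes tripeptides, had 112 and 99.8 CPM for proestrus, 198 and 186 for estrus, 87.1 and 76.3 for metestrus and 119.97 and 100.3 for diestrus. Its estrus libraries were also the highest. It fell by 1.23 ± 0.14 into metestrus (adjusted p = 0.00228), while the rise of 0.86 ± 0.13 (adjusted p = 0.0122) ended without either proestrus library (0.0567 and 0.0864) or either estrus library (0.0766 and 0.0645). Ctsd, the main aspartic protease of the lysosome, had 501 and 381 CPM for proestrus, 779 and 803 for estrus, 325 and 349 for metestrus and 394 and 1190.4 for diestrus and did not pass (adjusted p = 0.130). Diestrus library 2 held the highest value of the 8, while diestrus library 1 was close to proestrus. Ctsd shares 808 exon bases with Gm49369 on the same strand, a gene with no count in any library, and the effect on its level is not known. Ctsd was also picked after its values were seen.

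The hydrolases of glycans remove sugars from glycoproteins, glycolipids and glycosaminoglycans. Of the 9, 8 changed across the stages (39.1% of all genes tested). In metestrus 7 were lower than in estrus (19.5% of all), and 3 were higher in estrus than in proestrus (8.12% of all). Hexa (ENSMUSG00000025232, chr9:59539540-59565109), a subunit of β-hexosaminidase A, had 117 and 99.9 CPM for proestrus, 247 and 304 for estrus, 84.7 and 85.2 for metestrus and 147 and 112 for diestrus. The estrus libraries lay well above the rest. It rose by 1.35 ± 0.18 into estrus (adjusted p = 0.00763), which ended without proestrus library 2 (0.0601) or estrus library 2 (0.0523), and fell by 1.70 ± 0.18 after it (adjusted p = 0.00198). Man2b1 (ENSMUSG00000005142, chr8:85083270-85098282), the α-mannosidase, had 121 and 103 CPM for proestrus, 219 and 238 for estrus, 79.1 and 90.1 for metestrus and 104 and 113 for diestrus. It followed the same course, with a rise of 1.03 ± 0.13 (adjusted p = 0.00683) that ended without proestrus library 2 (0.0586) or estrus library 2 (0.0541), and a fall of 1.43 ± 0.13 (adjusted p = 0.00160). Naglu (ENSMUSG00000001751, chr11:101070012-101077672), which acts on heparan sulfate, had 32.6 and 30.6 CPM for proestrus, 53.4 and 54.9 for estrus, 24.95 and 23.2 for metestrus and 34.1 and 38.7 for diestrus. Again estrus was above every other library. Its fall of 1.17 ± 0.11 (adjusted p = 0.00181) held with any library left out, and its rise of 0.78 ± 0.11 (adjusted p = 0.0104) ended without either proestrus library (0.0588 and 0.086) or either estrus library (0.0683 and 0.0709).

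Neu1 (ENSMUSG00000007038, chr17:34931253-34935953), the lysosomal sialidase, had 134 and 113 CPM for proestrus, 133 and 153 for estrus, 54.0 and 56.5 for metestrus and 66.0 and 57.4 for diestrus. Proestrus and estrus libraries were close to each other and above all libraries of the other stages. It fell by 1.37 ± 0.14 from estrus to metestrus (adjusted p = 0.00192) and stood 1.01 ± 0.14 higher in proestrus than in diestrus (adjusted p = 0.00493). Metestrus minus proestrus was -1.16 ± 0.14 (adjusted p = 0.00541), which ended without metestrus library 1 (0.0577) or 2 (0.0616). Gusb, the β-glucuronidase, averaged 174 ± 1.85 CPM for proestrus, 149 ± 12.4 CPM for estrus, 99.0 ± 2.52 CPM for metestrus and 105 ± 15.4 CPM for diestrus. Gla and Glb1, the α- and β-galactosidases, were at 20.2 and 58.9 CPM for estrus and 10.6 and 30.2 CPM for metestrus, and both fell in that step. Manba, the β-mannosidase, did not pass, with stage means between 35.0 and 50.6 CPM.

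Gaa (ENSMUSG00000025579, chr11:119267887-119285454), the enzyme that breaks down glycogen in the lysosome, had its highest mean in diestrus. Its levels were 185 and 158 CPM for proestrus, 309 and 266 for estrus, 209 and 192 for metestrus and 401 and 269 for diestrus. The lowest libraries were those of proestrus and the highest was diestrus library 1. Proestrus minus diestrus was -0.97 ± 0.21 (adjusted p = 0.0202), which ended without proestrus library 1 (0.0803) or 2 (0.0959) or when the other 4 libraries were dropped from the fit (0.0905), and its difference of -0.52 ± 0.21 between metestrus and estrus did not pass (adjusted p = 0.0894).

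All 4 hydrolases of lipids changed (39.1% of all genes tested) and all 4 were lower in metestrus than in estrus (19.5% of all). Asah1 (ENSMUSG00000031591, chr8:41340197-41374773), acid ceramidase, was highest in proestrus, with 201 and 163 CPM for proestrus, 145 and 142 for estrus, 79.3 and 86.7 for metestrus and 70.4 and 78.3 for diestrus. Its proestrus libraries lay above those of estrus, and both above the rest. Proestrus minus diestrus was 1.29 ± 0.13 (adjusted p = 0.00245). Asah1 fell by 0.79 ± 0.13 from estrus to metestrus (adjusted p = 0.00678), a call that ended without metestrus library 1 (0.0589). Lipa, acid lipase, averaged 58.8 ± 2.71 CPM for proestrus, 112 ± 9.998 CPM for estrus and 49.4 ± 1.66 CPM for metestrus. Smpd1, acid sphingomyelinase, averaged 77.0, 118 and 53.6 CPM in the same stages, and Ppt1, which removes fatty acids from proteins, 115, 152 and 113 CPM. All 3 passed in both steps. Ppt1 shares 129 exon bases with Cap1 on the opposite strand, which was higher, at 413.5 to 675 CPM.

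Activators and lipid carriers present lipids to enzymes or move them, and Grn was listed with them. All 4 genes of this group changed (39.1% of all genes tested). Of them 3 were higher in estrus than in proestrus (8.12% of all) and 4 lower in metestrus than in estrus (19.5% of all). Npc2 (ENSMUSG00000021242, chr12:84754562-84773152), which carries cholesterol out of the lysosome, had 225 and 193 CPM for proestrus, 430.4 and 451 for estrus, 133 and 132 for metestrus and 209.6 and 197 for diestrus. The estrus libraries were the highest and those of metestrus the lowest, with no overlap. It rose by 1.08 ± 0.12 into estrus (adjusted p = 0.00458) and fell by 1.73 ± 0.12 after it (adjusted p = 8.63e-04), and both calls held with any library left out. Psap, the precursor of the saposins, had the highest level of the 37 per kb of exon (586 CPM per kb over all libraries) and averaged 1319 ± 149.8 CPM for proestrus, 2529 ± 109.8 CPM for estrus, 1156 ± 39.4 CPM for metestrus and 1428 ± 72.0 CPM for diestrus. Gm2a, which presents a ganglioside to β-hexosaminidase A, averaged 90.2, 171, 89.2 and 155 CPM in the same order, with a return in diestrus that did not pass (adjusted p = 0.187). Grn, progranulin, fell between estrus, at 871 ± 135 CPM, and metestrus, at 262 ± 37.6 CPM (adjusted p = 0.00352).

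Among the 7 membrane proteins, Gpnmb (ENSMUSG00000029816, chr6:49036546-49070929), a glycoprotein of the lysosomes of macrophages and pigment cells, moved furthest and had the smallest p across the stages of the 37. It had 1.44 and 2.03 CPM for proestrus, 111 and 157 for estrus, 9.02 and 10.6 for metestrus and 14.4 and 27.7 for diestrus. Estrus lay far above all others, and the proestrus libraries were the lowest of the 8. It rose by 6.26 ± 0.42 into estrus, a 76.7-fold difference (adjusted p = 0.00173), and fell by 3.77 ± 0.36 into metestrus (adjusted p = 0.00174), without reaching the level of proestrus. It remained 2.49 ± 0.39 higher in metestrus than in proestrus (adjusted p = 0.0103), which ended without proestrus library 1 (0.0852) or metestrus library 1 (0.0608) or 2 (0.0821). Proestrus minus diestrus was -3.60 ± 0.39 (adjusted p = 0.00275), and estrus minus diestrus 2.67 ± 0.34 (adjusted p = 0.00407).

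The structural proteins of the lysosomal membrane moved less. Lamp1 averaged 751 ± 84.5 CPM for estrus and 447 ± 2.97 CPM for metestrus, a fall of 0.75 ± 0.15 (adjusted p = 0.0103) that ended without estrus library 2 (0.0617) or metestrus library 1 (0.0754) or 2 (0.0803). Lamp2 averaged 803 ± 25.7 CPM and 409.7 ± 6.56 CPM, a fall of 0.97 ± 0.15 (adjusted p = 0.00560) that ended without metestrus library 1 (0.051) or 2 (0.0526). Scarb2, which carries β-glucocerebrosidase to the lysosome, averaged 164 and 99.8 CPM and also fell. Mcoln1, a calcium channel, rose into estrus and fell after it, at 35.5, 56.3 and 30.8 CPM for proestrus, estrus and metestrus. Cd63, a tetraspanin shared with exosomes, did not pass, with stage means between 340.5 and 383 CPM (adjusted p = 0.565). Atp6v0d2, a proton pump subunit known from osteoclasts and macrophages, had 2.82 and 1.54 CPM for proestrus, 10.6 and 10.01 for estrus, 0.893 and 0.898 for metestrus and 82.6 and 2.47 for diestrus. It was called across the stages (adjusted p = 0.0462) but in no pair, its highest value by far was in diestrus library 1, and the call ended when any 1 of the 6 libraries of the other stages was left out, at adjusted p from 0.101 to 0.141. In that library the summed level of 4 gland genes was 7565 CPM, against 5.96 to 60.1 CPM in the other 7, and the part of this in the value was not tested.

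Of the 2 acid phosphatases, Acp5 (ENSMUSG00000001348, chr9:22126727-22135711), the tartrate-resistant form of macrophages and osteoclasts, had 84.2 and 51.7 CPM for proestrus, 104 and 93.3 for estrus, 23.0 and 24.9 for metestrus and 32.1 and 25.2 for diestrus. Proestrus and estrus libraries lay above the others. It fell by 2.04 ± 0.25 from estrus to metestrus (adjusted p = 0.00285). Proestrus minus diestrus was 1.24 ± 0.24 (adjusted p = 0.0150), which ended without proestrus library 1 (0.0575) or when the other 4 libraries were dropped from the fit (0.0817). Acp2 did not pass, with stage means between 62.4 and 76.7 CPM (adjusted p = 0.0954). Tfeb, the transcription factor of the list, was the lowest of the 37 per kb (2.98 CPM per kb), ranged over 13.6 to 22.7 CPM and did not pass (adjusted p = 0.369).

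**Figure D2:**
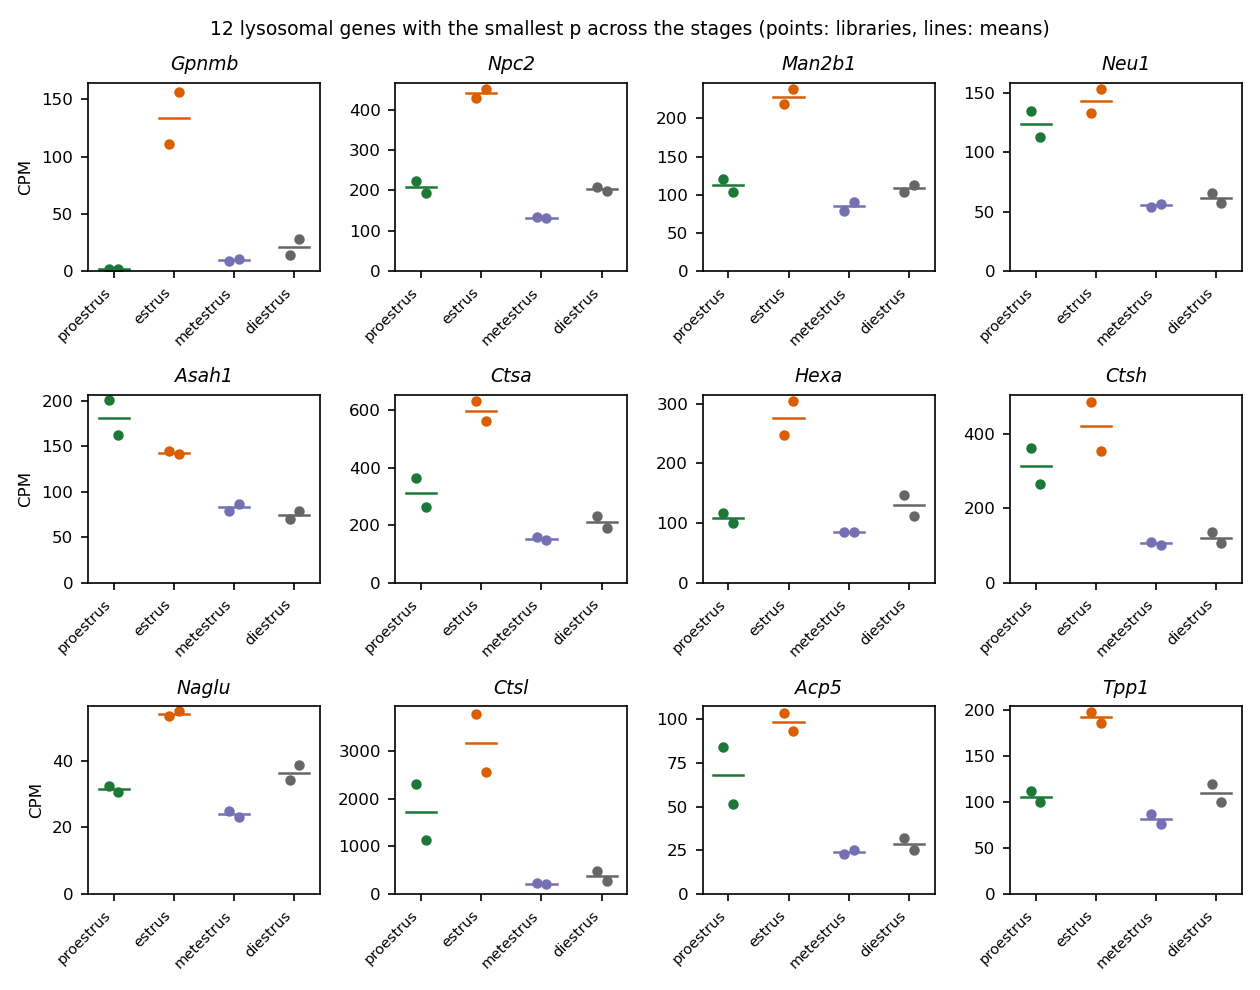
CPM (y axis, linear from 0, with its own range for each gene) by stage for the 12 lysosomal genes with the smallest p across the stages. Points are the 2 libraries of a stage and lines their mean. Estrus is the highest mean for 11 of the 12, and proestrus for Asah1.

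By step of the cycle, 15 of the 37 genes were higher in estrus than in proestrus (8.12% of all genes tested) and 0 were lower (6.94% of all). For the lower direction 1 gene, Asah1, had an unadjusted p under 0.05, and DESeq2 called 0. The median log2 fold change was 0.62 for the list and 0.01 for all genes tested. The count of 15 leaned on single libraries: it was 6 and 2 without proestrus library 1 or 2, 4 and 2 without estrus library 1 or 2, 9 without either metestrus library, and 20 without either diestrus library. Gpnmb and Npc2 were called under every alternative fit. The other 13 (Ctsa, Ctsz, Gm2a, Hexa, Lgmn, Lipa, Man2b1, Mcoln1, Naglu, Ppt1, Psap, Smpd1 and Tpp1) lost the call without proestrus library 2 and without estrus library 2.

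From estrus to metestrus 28 of the 37 were lower (19.5% of all genes tested) and 0 higher (16.7% of all), with 0 higher by unadjusted p and by DESeq2. The median was -1.13 for the list and -0.05 for all genes. Leaving out 1 library gave 18 to 32 lower genes, the lowest number without metestrus library 1, and 18 of the 28 calls held under every alternative. The other 10 were those of Asah1, Ctsz, Gla, Glb1, Gm2a, Gusb, Lamp1, Lamp2, Ppt1 and Scarb2, each of which ended without metestrus library 1, at adjusted p from 0.051 to 0.146. The 28 fall into 15 that had also risen from proestrus to estrus and 13 that had not been called in that step. The 13 are Acp5, Asah1, Ctsc, Ctsh, Ctsl, Gla, Glb1, Grn, Gusb, Lamp1, Lamp2, Neu1 and Scarb2, and 10 of them were also lower in metestrus than in proestrus. Whether these 13 rose less than the 15 was not tested, and the grouping rests on a threshold. Both steps use the same estrus libraries, so a high value there favours both calls. The shares of all genes with the same combinations of calls were not counted. The 9 genes not called in the fall are Acp2, Atp6v0d2, Cd63, Ctsb, Ctsd, Ctsk, Gaa, Manba and Tfeb. Of the 9 genes with TCACGTG in the promoter window 7 fell in this step, and of the 24 with a window and no such match 19 fell.

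**Figure D3:**
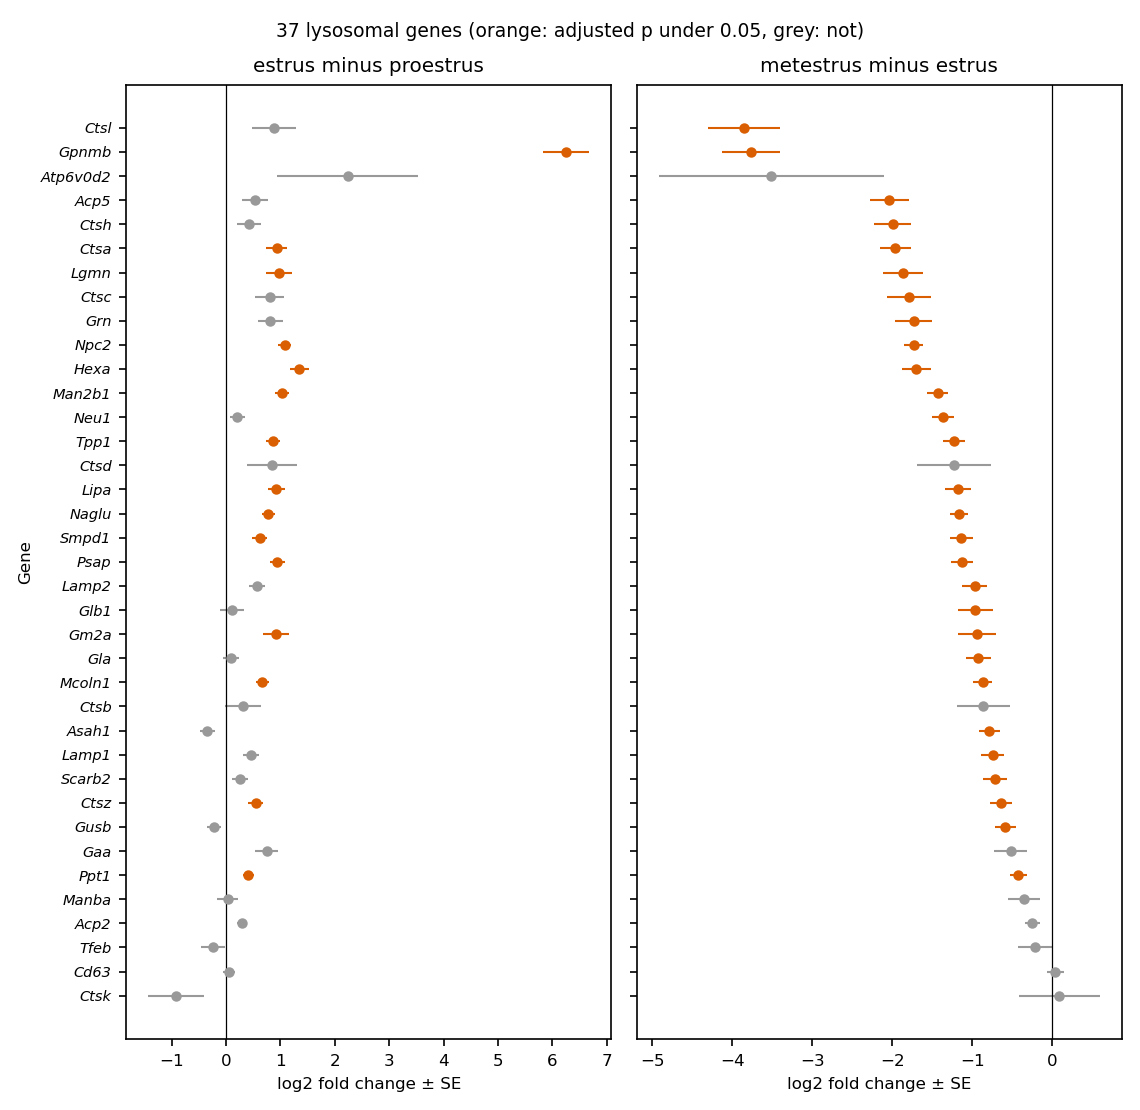
Log2 fold change ± SE (x axis) of each of the 37 lysosomal genes (y axis, ordered by the second panel) from proestrus to estrus (left) and from estrus to metestrus (right), from the edgeR fit to 8 libraries. Orange points passed an adjusted p of 0.05 (15 on the left, 28 on the right) and grey points did not. Every orange point lies above 0 on the left and below 0 on the right.

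From metestrus to diestrus 0 of the 37 passed in either direction (0.282% of all genes tested were higher and 0.226% lower). By unadjusted p under 0.05, 15 were higher and 0 lower, and DESeq2 called 7 higher and 0 lower. Without diestrus library 2, 6 were called higher in edgeR. The median was 0.30 for the list and 0.02 for all genes. Between diestrus and the proestrus that follows it in the cycle, 6 genes were higher in proestrus (12% of all) and 2 lower (10.4% of all), with medians of 0.21 and -0.01. The 6 are Acp5, Asah1, Ctsh, Ctsl, Gusb and Neu1, and the 2 are Gaa and Gpnmb. Without proestrus library 1 there were 2 higher and 1 lower, without proestrus library 2 there were 9 and 1, without diestrus library 1 there were 9 and 3, and without diestrus library 2 there were 6 and 4. Beside the shares of all genes, neither count sets the list apart.

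The opposite pairs share libraries with the steps above. Estrus exceeded diestrus in 22 genes (13.9% of all) and fell below it in 0 (9.97% of all, with 0 by unadjusted p and by DESeq2). Without estrus library 1, 13 were higher. Metestrus was below proestrus in 13 genes (10.3% of all) and above it in 1, Gpnmb (6.68% of all). None of these 14 calls held under every alternative. Without metestrus library 1 or 2 the counts were 0 lower and 0 higher, where 16 and 13 genes were lower by unadjusted p under 0.05, and without proestrus library 1 they were 4 lower and 0 higher. The 87 calls of the 5 pairs with any came with no overlap between the libraries of the stages compared. The same was not counted over all called genes, so it does not set the list apart.

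The libraries of a stage did not always match. In proestrus 33 of the 37 genes were higher in library 1 than in library 2, against 52.1% of all genes tested. In estrus the number was 21 (51.3% of all), in metestrus 17 (48.2% of all) and in diestrus 22 (49.3% of all). The summed level of the macrophage genes described below was also higher in proestrus library 1, at 1302 against 851 CPM, as was that of liver genes, at 125 against 1.24 CPM. Their part in the difference between these libraries was not tested.

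The wider machinery of the lysosome was read from 112 further genes in 6 lists, of which 106 had enough counts. Of these 61 changed across the stages, against 39.1% of all genes tested. In estrus 28 were higher than in proestrus (8.12% of all) and 1 lower (6.94% of all), and in metestrus 60 were lower than in estrus (19.5% of all) and 2 higher (16.7% of all). Without diestrus library 1 or 2, 72 and 75 changed across the stages. Among 29 other hydrolases 20 fell from estrus to metestrus and 0 rose. Galc, which cleaves galactosylceramide, had 42.6 and 41.3 CPM for proestrus, 51.9 and 59.5 for estrus, 22.6 and 24.3 for metestrus and 23.1 and 21.8 for diestrus, and fell by 1.25 ± 0.12 (adjusted p = 0.00164). Its estrus libraries were the highest. Ctss, the cathepsin of antigen-presenting cells, had 112 and 73.1 CPM for proestrus, 284 and 304 for estrus, 83.3 and 78.9 for metestrus and 71.3 and 107 for diestrus, and fell by 1.86 ± 0.26 (adjusted p = 0.00382) after a rise of 1.66 ± 0.26 (adjusted p = 0.0117) that ended without proestrus library 2 (0.0684) or either estrus library (0.0638 and 0.0683). Idua, which acts on heparan and dermatan sulfate, fell by 1.15 ± 0.16 (adjusted p = 0.00393).

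Among 23 other lysosomal membrane proteins 10 were higher in estrus than in proestrus (8.12% of all genes tested). In metestrus 14 were lower than in estrus (19.5% of all) and 1 higher (16.7% of all). Slc17a5, the exporter of sialic acid, had 27.2 and 26.7 CPM for proestrus, 58.0 and 55.6 for estrus, 16.8 and 15.3 for metestrus and 24.1 and 20.4 for diestrus. It fell by 1.82 ± 0.13 (adjusted p = 8.92e-04). Its estrus libraries lay above all others. Cln3 rose by 1.06 ± 0.12 (adjusted p = 0.00524) and fell by 1.35 ± 0.12 (adjusted p = 0.00151), and Laptm5, a membrane protein of blood cells, fell by 1.48 ± 0.15 (adjusted p = 0.00181). Of 20 tested subunits of the proton pump, of 23, 3 were higher in estrus than in proestrus (8.12% of all). From estrus to metestrus 12 were lower (19.5% of all). The 3 with the smallest p were Tcirg1, with a fall of 1.29 ± 0.19 (adjusted p = 0.00411), Atp6v1b2, 1.05 ± 0.12 (adjusted p = 0.00276), and Atp6v0a1, 1.08 ± 0.14 (adjusted p = 0.00325).

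Sorting of hydrolases, the tagging with mannose 6-phosphate and its receptors, changed across the stages in 3 of 12 genes, below the 39.1% of all genes tested, and in 7 and 5 without diestrus library 1 or 2. By pair, 5 of the 12 were lower in metestrus than in estrus (19.5% of all) and 0 higher (16.7% of all). In estrus 1 was higher than in proestrus (8.12% of all) and 0 lower (6.94% of all). Igf2r, the larger receptor, had 103 and 108 CPM for proestrus, 306 and 304 for estrus, 147 and 136 for metestrus and 145 and 129 for diestrus. It was lowest in proestrus and highest in estrus, a rise of 1.53 ± 0.11 (adjusted p = 0.00193). M6pr, the smaller receptor, had 387 and 318 CPM for proestrus, 271 and 323 for estrus, 183 and 198 for metestrus and 159 and 157 for diestrus, and its proestrus level instead exceeded that of diestrus by 1.16 ± 0.14 (adjusted p = 0.00382). Its fall of 0.64 ± 0.14 from estrus to metestrus (adjusted p = 0.0158) ended without estrus library 2 (0.0896) or metestrus library 1 (0.111) or 2 (0.083). Nagpa, which uncovers the tag, changed (adjusted p = 0.0385), a call that ended when any 1 of the 6 libraries of proestrus, estrus and metestrus was left out, at adjusted p from 0.0787 to 0.166.

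Of 18 regulators, 8 changed across the stages, near the 39.1% of all genes tested. By pair, 5 were higher in estrus than in proestrus (8.12% of all) and 0 lower (6.94% of all). In metestrus 6 were lower than in estrus (19.5% of all) and 1 higher (16.7% of all). Mitf, a relative of Tfeb known from pigment cells, osteoclasts and macrophages, had 24.9 and 20.4 CPM for proestrus, 97.6 and 113 for estrus, 29.3 and 23.6 for metestrus and 36.2 and 45.3 for diestrus. The estrus libraries lay above all others with a wide gap. It rose by 2.22 ± 0.19 (adjusted p = 0.00304) and fell by 1.99 ± 0.19 (adjusted p = 0.00163). Rragd, a GTPase that links nutrient sensing at the lysosome to these factors, rose by 3.47 ± 0.23 (adjusted p = 0.00173) and fell by 1.83 ± 0.21 (adjusted p = 0.00257), with 2.05 and 1.89 CPM for proestrus, 19.7 and 24.2 for estrus, 6.87 and 5.48 for metestrus and 12.5 and 14.9 for diestrus. These rises and falls of Mitf and Rragd held with any library left out. Flcn, a partner of the Rag GTPases, fell by 1.12 ± 0.14 (adjusted p = 0.00312). Cystatins, which inhibit cysteine proteases, had 4 of 7 genes tested and 3 changed, Cstb, Cst7 and Cst3. Cstb fell by 0.69 ± 0.10 from estrus to metestrus (adjusted p = 0.00452), a call that ended without metestrus library 2 (0.0509). The changes of Cst7 (adjusted p across the stages = 0.0437) and Cst3 (0.0451) ended in the same way, with any 1 of those 6 libraries left out.

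Marker lists of cell types differed in their course over the cycle. The summed level of 18 macrophage genes was 1302 and 851 CPM for proestrus, 2631 and 2771 for estrus, 952 and 869 for metestrus and 835 and 1141 for diestrus. The estrus libraries were again the highest, while proestrus, metestrus and diestrus overlapped. Of the 17 tested, 9 were higher (8.12% of all genes tested) and 0 lower (6.94% of all) in estrus than in proestrus. From estrus to metestrus 12 were lower (19.5% of all) and 0 higher (16.7% of all). None of the 18 was at 0 in every library, and Marco, the lowest, reached 0.22 CPM. Adgre1, the F4/80 antigen, had 33.2 and 26.8 CPM for proestrus, 120.1 and 111 for estrus, 35.3 and 38.7 for metestrus and 35.2 and 48.9 for diestrus, and Csf1r, the receptor for colony-stimulating factor, 68.6 and 41.2 CPM for proestrus, 221 and 279.8 for estrus, 79.9 and 74.8 for metestrus and 78.7 and 87.6 for diestrus. Between proestrus and diestrus 4 macrophage genes were higher in proestrus (12% of all) and 2 lower (10.4% of all). Between metestrus and proestrus 1 was higher in metestrus (6.68% of all) and 3 lower (10.3% of all). A list of 8 genes of osteoclasts and multinucleated macrophages summed to 179 and 206 CPM for proestrus, 119 and 110.1 for estrus, 205 and 223 for metestrus and 209.8 and 110.1 for diestrus. Dcstamp, Ocstamp, Calcr, Oscar and Siglec15 stayed under 1 CPM in every library, and of the 3 genes tested 2 changed across the stages (39.1% of all). Itgb3, an integrin subunit, was lower in estrus than in proestrus and higher in metestrus than in estrus, while Tnfrsf11a, the receptor RANK, was lower in metestrus than in both estrus and proestrus and higher in estrus than in diestrus. These 2 were named after their values were seen, and each of these calls ended without metestrus library 1, at adjusted p from 0.0541 to 0.174.

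Of the other lists, those of neutrophils, T cells and liver also had their highest sums in the estrus libraries, and those of epithelium, stroma and smooth muscle did not. The sum of 8 genes of the luminal epithelium, the layer that lines the cavity, was 4879.8 and 3964 CPM for proestrus, 3701 and 3125 for estrus, 1211 and 1142 for metestrus and 779 and 1051 for diestrus. All 8 genes changed across the stages (39.1% of all genes tested). Of the 8, 6 were higher in proestrus than in diestrus (12% of all) and 7 higher in estrus than in diestrus (13.9% of all). In metestrus 5 were lower than in estrus (19.5% of all). The sum of the stroma list was lowest in estrus, with 15638 and 18280.3 CPM for proestrus, 11219 and 7350.05 for estrus, 16990.2 and 11903 for metestrus and 14126 and 13725 for diestrus. Gene by gene it was mixed: from proestrus to estrus 4 of the 8 stroma genes had a positive log2 fold change. The median was -0.0147, with 2 called lower (6.94% of all genes tested) and 0 higher (8.12% of all). Smooth muscle genes gave 11383 and 8335 CPM for proestrus, 10829.6 and 9392 for estrus, 10365 and 8040.5 for metestrus and 18292 and 7389 for diestrus, highest in diestrus library 1, and neutrophil genes 35.4 and 31.2 CPM for proestrus, 118 and 138 for estrus, 21.7 and 33.2 for metestrus and 16.9 and 62.1 for diestrus. Further lists changed in 2 of 6 tested endothelial genes, 1 of 3 T cell genes, 1 of 4 mast cell and eosinophil genes, 2 of 6 genes of ovary, oviduct, fat and liver, and 2 of 4 gland genes. Of all genes tested 39.1% changed, and these small counts do not set the lists apart. Because Alb was high in some libraries, 6 liver genes were added after values were seen, and summed to 125 and 1.24 CPM for proestrus, 878 and 669 for estrus, 0.134 and 2.87 for metestrus and 0.630 and 0.454 for diestrus. They were high in both estrus libraries and, at a lower level, in proestrus library 1. The part of these cells and tissues in the course of the lysosomal genes was not tested.

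**Figure D4:**
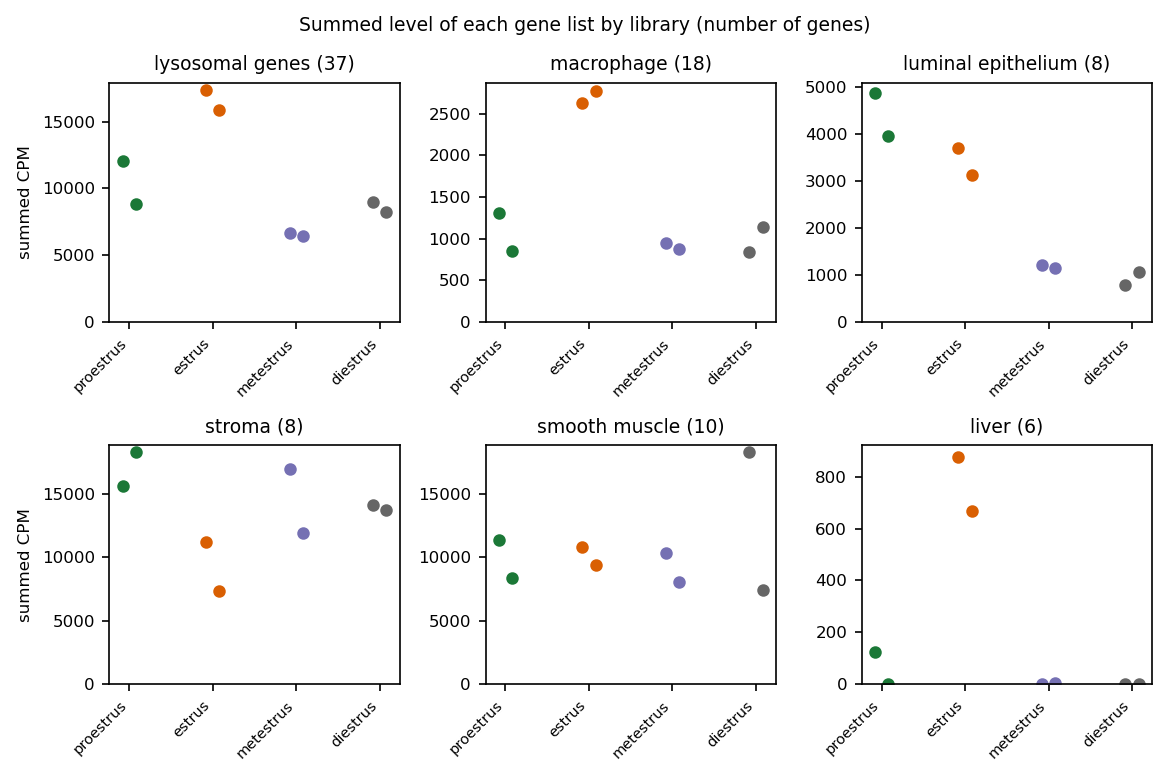
Summed CPM (y axis, linear from 0, with its own range in each panel) of the 37 lysosomal genes and of 5 marker lists, by stage, with 1 point for each library. The lysosomal and macrophage sums are highest in the estrus libraries, the luminal epithelium sum is highest in proestrus and the liver sum, chosen after values were seen, is high in estrus and in 1 proestrus library.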

How the data were processed

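Polyadenylated RNA of the uterus was sequenced in 8 libraries with a stranded kit, per the labels' protocols. The deposited values are counts per gene that the authors made from aligned reads, not normalised, with totals of 17863546 to 21896786. The submitters' processing notes name STAR, featureCounts of the Subread package and the mouse build GRCm38 (mm10). Their versions, the annotation and whether counting used strand were not given in the sources used here. Reads of genes that overlap in exons, as 12 of the 37 lysosomal genes do, may be split, shared or left out.

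GENCODE M21 gave symbols and coordinates for 52007 identifiers. In no library did the 301 without an entry exceed 0.0240% of counts. Counts were filtered with filterByExpr by stage in edgeR 4.0.16 (R 4.3.3), which left 18114 genes and left out 34194. They were scaled with TMM factors of 0.8975 to 1.111 and fitted with a quasi-likelihood model over all 8 libraries (4 residual degrees of freedom). The 4 stages were tested together and in 6 pairs, with two-sided tests and Benjamini-Hochberg adjusted p under 0.05. The SE is the log2 fold change divided by the square root of F. The procedure was first tested on simulated counts with known changes.

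The members, lists and tests were chosen with earlier results of these data known, and no test was run over a list. Full values were given for the 12 genes of smallest p across the stages and for up to 2 called rises and 2 called falls of each pair. From each of the 6 lists of the wider machinery the 3 genes of smallest p were named, some with full values. Ctsb, Ctsk, Ctsd and Atp6v0d2 were shown in full outside this rule, as were the macrophage markers Adgre1 and Csf1r. Alternatives were DESeq2 1.42.0, its size factors, no filter, the 4 libraries of a pair alone, a block for the replicate number, and fits that omit 1 library. In fits without a library, the remaining library of that stage is assumed to vary like the other stages.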

Additional observations from a re-analysis of the deposited data

How the results depend on the processing

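With each library left out in turn, the genes changed across the stages numbered 18 to 32 of the 37, those higher in estrus than in proestrus 2 to 20, and those lower in metestrus than in estrus 18 to 32. From metestrus to diestrus 0 to 6 were higher. In proestrus against diestrus 2 to 9 were higher and 1 to 4 lower, in estrus against diestrus 13 to 23 were higher and 0 to 1 lower, and in metestrus against proestrus 0 to 1 were higher and 0 to 17 lower. These fits have fewer samples. No called value changed direction under any alternative. DESeq2 called 7 genes higher in diestrus than in metestrus and 4 lower in proestrus than in diestrus, and edgeR without a filter called 1 and 4. With only the libraries of the pair, 3 genes were higher and 1 lower in proestrus than in diestrus. The cause of these shifts was not tested. Apart from the fits without a library and the block below, the other counts of the 37 genes stayed within 1.5 times of those reported. Of the 87 calls in pairs 35 held under every alternative, as did 16 of the 30 across the stages.

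The replicate number is shared between stages, but nothing in the labels pairs the libraries. Deviations of libraries with the same number correlated between stages at -0.0926 to 0.145, so the numbers were not taken to pair them. With the number as a block, 10 genes (6 without it) exceeded diestrus in proestrus, 28 changed across the stages instead of 30, and 86 of the 87 pair calls remained. With 2 libraries a stage, changes of modest size, and any in genes at low counts, may go uncalled.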
